A study of Mus musculus with 4 samples.

Results

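The genes described here are 50 genes of DNA replication and of entry into S phase, chosen as a named list across the origin licensing, DNA synthesis, nucleotide supply, G1/S control and chromatin duplication machinery. All 50 were measured, among 19938 genes that could be named on the array, and all 50 passed the filter on low signal that 12203 of the named genes passed. Expression was read from bone-marrow-derived macrophages (BMDMs) of female BalbC mice. These macrophages were grown from marrow over 7 days in L929-conditioned medium, which supplies macrophage colony stimulating factor. The first group, LPS/zVAD/Nec-1, received 10 ng/ml lipopolysaccharide (LPS, the bacterial ligand of TLR4), 50 µM zVAD (a caspase inhibitor) and 30 µM Nec-1 (the RIPK1 kinase inhibitor necrostatin-1). The LPS/zVAD group received LPS and zVAD at those doses, the LPS group received LPS alone, and the Control group received none of the 3 agents. In all groups the medium was changed to 10% L929 medium before treatment, so every array shows cells kept at that lower share of conditioned medium. Each group was 1 Affymetrix array, and the labels do not say how many animals or wells it holds. Arrays of zVAD alone, of Nec-1 alone and of LPS with Nec-1 were not analysed here, and the sources used here give no treatment times.

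With 1 array a group there is no replicate spread, no test and no error on any value below. The number of arrays limits the precision. Values are log2 signals, a brightness scale on which a difference of 1 is 2-fold, and a log2 ratio is the difference of such signals between arrays. In counts, "lower" and "higher" mean by at least 2-fold, a rule of size. Median signals over the 35556 probes lay between 6.41 and 6.52 on the 4 arrays. All 10 macrophage markers, Csf1r, Adgre1, Lyz2 and Cd68 among them, were above the filter level of log2 6.47 on every array, with a summed signal of log2 16.32 on LPS/zVAD/Nec-1, 16.28 on LPS/zVAD, 16.41 on LPS and 16.26 on Control. Of 7 measured lymphocyte markers 1 passed the filter, and of 4 measured erythroid and stem cell markers 1 passed, Cd34.

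Chromosomes are copied once per cell division in a fixed order of steps. In G1 the origin recognition complex, Cdc6 and Cdt1 load the MCM2-7 helicase onto DNA. At the G1/S boundary cyclin E with its kinase and the freed activator E2F proteins raise transcription of the replication genes, after which Cdc45 and the GINS complex turn the loaded helicase on and the polymerases start synthesis. Macrophages in culture divide under macrophage colony stimulating factor, and LPS is known to stop that division.

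E2F proteins act through short GC-rich words near transcription starts, so promoter windows of members with such a word and with unlike behaviour on the arrays are printed first. Each runs from 250 bases before to 50 bases after an annotated start, 5′ to 3′ on the gene's strand, from RefSeq (GRCm38.p6). Capitals mark the words TTTCGCGC, TTTGGCGC, TTTCCCGC and TTTGCCGC, read on both strands. The first pair, Mcm6 and Cdt1, belongs to genes with more signal on LPS/zVAD than on LPS. Mcm5, Pole2 and Cdca7 belong to genes at least 2-fold lower than Control on all 3 arrays with LPS. Rfc3 belongs to a gene within 0.19 of its Control signal throughout. The windows are chr1:128359656-128359955 for Mcm6 (minus strand), chr8:122567765-122568064 for Cdt1 (plus strand), chr8:75109259-75109558 for Mcm5 (plus strand), chr12:69228141-69228440 for Pole2 (minus strand), chr2:72475969-72476268 for Cdca7 (plus strand) and chr5:151651159-151651458 for Rfc3 (minus strand).
Mcm6: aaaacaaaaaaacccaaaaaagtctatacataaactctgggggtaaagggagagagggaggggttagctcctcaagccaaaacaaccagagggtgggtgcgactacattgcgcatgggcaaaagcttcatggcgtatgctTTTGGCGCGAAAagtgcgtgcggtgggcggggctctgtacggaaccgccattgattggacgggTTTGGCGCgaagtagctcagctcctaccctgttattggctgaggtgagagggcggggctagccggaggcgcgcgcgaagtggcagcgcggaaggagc
Cdt1: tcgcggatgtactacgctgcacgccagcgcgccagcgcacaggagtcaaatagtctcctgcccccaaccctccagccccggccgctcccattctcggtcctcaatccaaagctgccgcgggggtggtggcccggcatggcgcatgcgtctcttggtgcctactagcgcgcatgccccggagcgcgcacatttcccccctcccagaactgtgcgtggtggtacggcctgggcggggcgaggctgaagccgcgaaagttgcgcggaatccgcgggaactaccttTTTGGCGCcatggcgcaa
Mcm5: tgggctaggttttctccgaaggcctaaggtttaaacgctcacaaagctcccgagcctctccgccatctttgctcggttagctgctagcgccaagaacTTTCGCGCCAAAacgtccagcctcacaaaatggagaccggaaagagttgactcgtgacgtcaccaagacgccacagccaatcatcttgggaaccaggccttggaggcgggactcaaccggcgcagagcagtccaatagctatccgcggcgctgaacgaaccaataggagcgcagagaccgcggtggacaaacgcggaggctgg
Pole2: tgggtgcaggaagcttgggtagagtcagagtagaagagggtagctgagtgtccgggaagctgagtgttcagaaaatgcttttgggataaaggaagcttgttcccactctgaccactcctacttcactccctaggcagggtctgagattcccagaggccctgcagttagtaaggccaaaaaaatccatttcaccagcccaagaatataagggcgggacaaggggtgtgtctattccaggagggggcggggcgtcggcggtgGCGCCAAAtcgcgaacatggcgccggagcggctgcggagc
Cdca7: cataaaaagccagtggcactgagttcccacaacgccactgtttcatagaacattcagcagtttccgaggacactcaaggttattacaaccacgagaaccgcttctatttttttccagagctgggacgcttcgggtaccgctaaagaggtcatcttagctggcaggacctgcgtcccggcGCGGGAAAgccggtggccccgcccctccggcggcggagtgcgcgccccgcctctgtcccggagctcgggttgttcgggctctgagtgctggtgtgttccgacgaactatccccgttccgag
Rfc3: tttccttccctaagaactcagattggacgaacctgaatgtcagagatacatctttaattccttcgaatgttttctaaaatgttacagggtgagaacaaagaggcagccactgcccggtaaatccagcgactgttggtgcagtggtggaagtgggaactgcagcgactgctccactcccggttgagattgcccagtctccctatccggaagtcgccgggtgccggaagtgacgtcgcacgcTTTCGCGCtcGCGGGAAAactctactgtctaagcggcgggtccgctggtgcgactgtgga

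The capitals differ in number and in place. In the Mcm6 window an overlapping pair of words starts at -110 and -106 from the start and a further word at -47. The Mcm5 window holds an overlapping pair at -153 and -149. Cdca7 has its word at -71, while those of Cdt1, Pole2 and Rfc3 lie at or beyond the start or just before it, at 32 in Cdt1, at 10 in Pole2 and at -10 and 0 in Rfc3. Distances are to the leftmost base of a word on the gene's strand, with 0 the start itself.

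The first question was how the 50 genes stood in LPS-treated cells relative to untreated ones. Of the 50 genes, 41 were lower with LPS and 0 were higher, against 7.2% lower and 8.24% higher among the 12203 genes past the filter. The median log2 ratio of the 50 was -1.43, and that of all genes past the filter was -0.12. The other arrays with LPS, which are read against the same Control array, gave 38 lower and 0 higher for LPS/zVAD/Nec-1 (median -1.41, all genes -0.08) and 34 lower and 0 higher for LPS/zVAD (median -1.35, all genes -0.14). Among all genes 7.68% were lower and 6.85% higher on LPS/zVAD/Nec-1 than on Control, and 10.7% were lower and 8.79% higher on LPS/zVAD. Both splits turned with the scaling. Of the genes past 2-fold, those higher than Control made up 47.2% as deposited and 57.1% under cyclic loess for LPS/zVAD/Nec-1, and 45.1% as deposited and 58.7% under cyclic loess for LPS/zVAD. Since the all-gene median itself moved by up to 0.14 with the scaling of the arrays, the members' medians relative to it are -1.33 for LPS/zVAD/Nec-1, -1.20 for LPS/zVAD and -1.31 for LPS. In bulk RNA, fewer cells in S phase and less of these RNAs per cell cannot be told apart.

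Taken gene by gene, 31 of the 50 were lower than Control on all 3 arrays with LPS, against 4.76% of all genes. A further 9 were lower on 2 of the 3 arrays (Mcm4, Mcm6, Pola1, Pola2, Prim2, Rfc5, Fen1, Lig1 and Tyms), and Cdc45 and E2f7 were lower on 1. The remaining 8 did not reach 2-fold on any of the 3 arrays: Orc1, Cdt1, Gins2, Mcm10, Pcna, Rfc3, Slbp and Ung. Just inside the threshold with LPS lay Prim2 at a log2 ratio of -1.06, and just outside it Fen1 at -0.93.

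**Figure D1:**
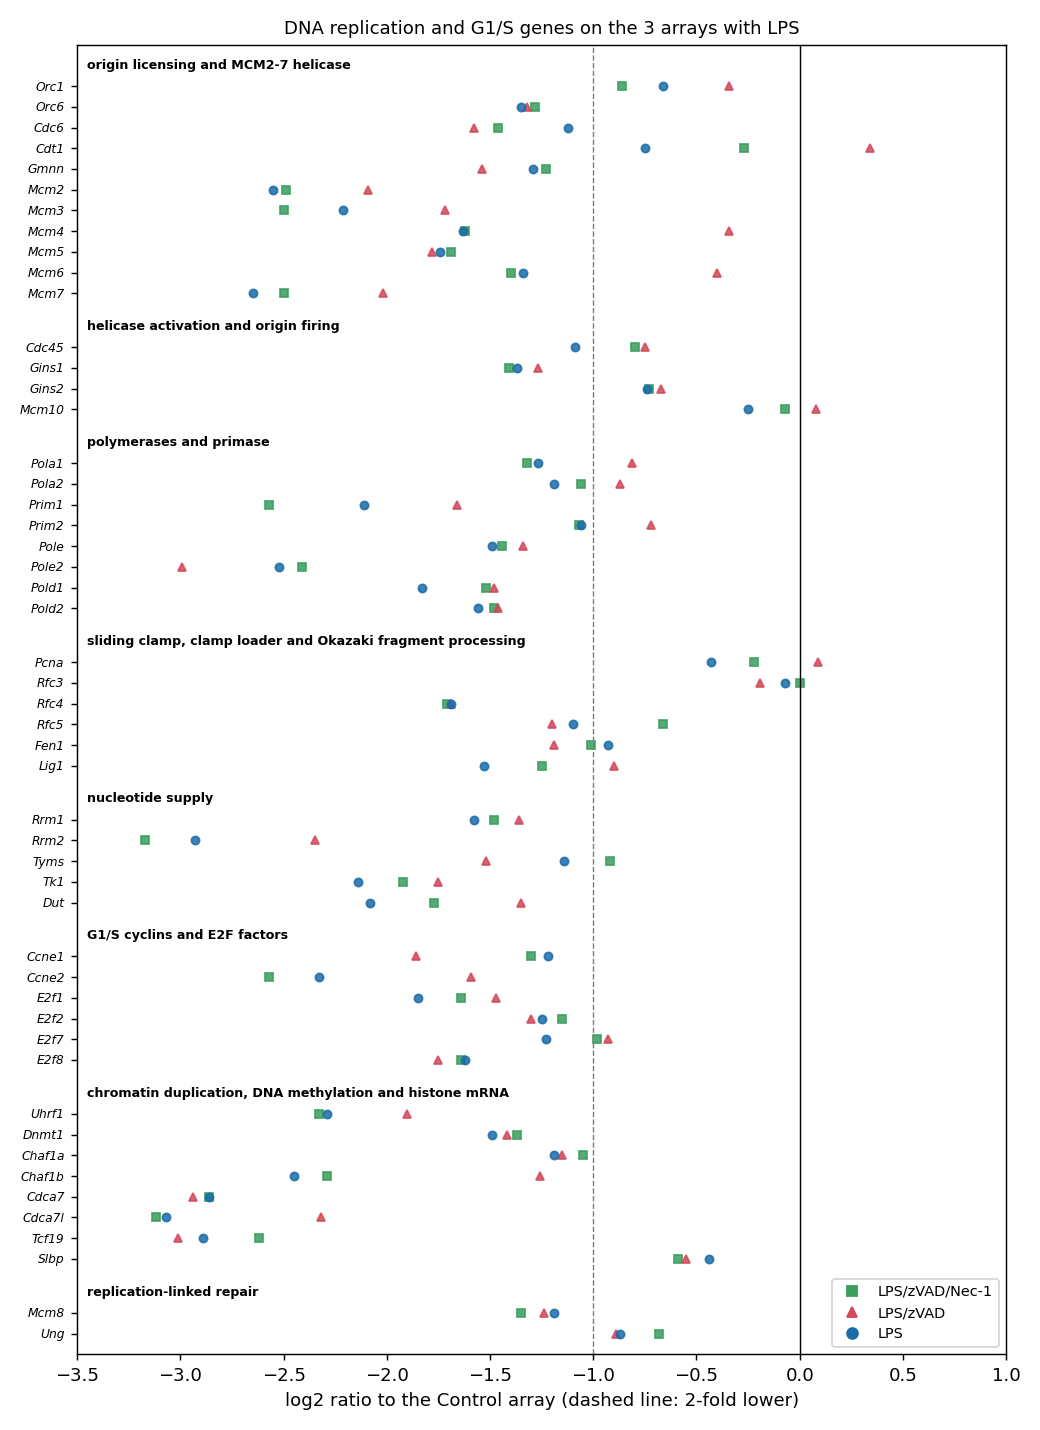
Log2 ratio of each of the 50 genes to the Control array, by role, for LPS/zVAD/Nec-1 (squares), LPS/zVAD (triangles) and LPS (circles), 1 array each. Most symbols lie left of the dashed line that marks 2-fold lower; Cdt1, Mcm10, Pcna and Rfc3 lie nearest to or past 0, and the LPS/zVAD triangles of Mcm4, Mcm6 and Chaf1b stand apart from the other symbols of their rows.

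Origin licensing and the helicase held 11 members, 9 of which were lower with LPS than in Control, 9 with LPS/zVAD/Nec-1 and 7 with LPS/zVAD. The helicase subunit genes Mcm7, Mcm2 and Mcm3 differed most in this group. Mcm7 had a log2 signal of 8.47 on LPS/zVAD/Nec-1, 8.95 on LPS/zVAD, 8.32 on LPS and 10.97 on Control, which made the LPS signal 6.27-fold lower. Mcm2 read 8.65 on LPS/zVAD/Nec-1, 9.05 on LPS/zVAD, 8.59 on LPS and 11.14 on Control. For Mcm3 the signals were 7.96 on LPS/zVAD/Nec-1, 8.75 on LPS/zVAD, 8.25 on LPS and 10.46 on Control. In all 3 genes the Control array stood alone at the top, more than 1.5 above any array with LPS.

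Mcm5, Mcm4 and Mcm6, subunits of the same hexamer, differed in their LPS/zVAD signal. Mcm5 had nearly equal signals on the arrays with LPS, at 9.38 on LPS/zVAD/Nec-1, 9.29 on LPS/zVAD and 9.32 on LPS, against 11.07 on Control. Mcm4 read 8.61 on LPS/zVAD/Nec-1, 9.89 on LPS/zVAD, 8.59 on LPS and 10.23 on Control, with LPS/zVAD 1.29 above LPS. Mcm6 read 9.47 on LPS/zVAD/Nec-1, 10.47 on LPS/zVAD, 9.53 on LPS and 10.87 on Control. For both genes the LPS/zVAD array lay within 0.40 of Control while the other arrays with LPS had log2 ratios of -1.34 or lower.

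Of the loading factors, Cdc6 (log2 ratio -1.46 on LPS/zVAD/Nec-1, -1.58 on LPS/zVAD and -1.12 on LPS) and the origin recognition subunit Orc6 (-1.28 on LPS/zVAD/Nec-1, -1.32 on LPS/zVAD and -1.35 on LPS) were lower on each array. So was Gmnn, which encodes the Cdt1 inhibitor geminin (-1.23 on LPS/zVAD/Nec-1, -1.54 on LPS/zVAD and -1.29 on LPS). The LPS/zVAD signals of Cdc6 (6.36) and Gmnn (6.25) were under the filter level, so those ratios are not well measured. Orc1, the largest subunit of the recognition complex, reached -0.86 on LPS/zVAD/Nec-1, -0.34 on LPS/zVAD and -0.66 on LPS. Cdt1 behaved otherwise, with signals of 10.02 on LPS/zVAD/Nec-1, 10.63 on LPS/zVAD, 9.54 on LPS and 10.29 on Control. Its LPS/zVAD signal was above that of Control by 0.34, and its signal was below Control by 0.27 on LPS/zVAD/Nec-1 and by 0.75 on LPS.

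Among the 4 genes of helicase activation and origin firing, 2 were lower with LPS, Gins1 and Cdc45. Gins1, a subunit of the GINS complex, read 8.19 on LPS/zVAD/Nec-1, 8.34 on LPS/zVAD, 8.24 on LPS and 9.60 on Control. Cdc45 read 8.02 on LPS/zVAD/Nec-1, 8.07 on LPS/zVAD, 7.73 on LPS and 8.82 on Control, so that the LPS array alone was past 2-fold. Gins2, a second GINS subunit, lay at 9.48 on LPS/zVAD/Nec-1, 9.54 on LPS/zVAD, 9.47 on LPS and 10.21 on Control, below Control on each array by 0.67 to 0.74. Mcm10, which aids activation of the loaded helicase, stayed close to Control (9.45), at 9.39 on LPS/zVAD/Nec-1, 9.53 on LPS/zVAD and 9.20 on LPS; its LPS/zVAD/Nec-1 ratio of -0.07 turned to 0.06 under cyclic loess scaling.

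All 8 polymerase and primase genes were lower on the LPS/zVAD/Nec-1 and LPS arrays than on Control, and 5 of the 8 were lower on LPS/zVAD. Pole2, the accessory subunit of the leading-strand polymerase epsilon, read 6.91 on LPS/zVAD/Nec-1, 6.32 on LPS/zVAD, 6.79 on LPS and 9.31 on Control, and its LPS/zVAD signal was under the filter level. Prim1, the catalytic primase subunit, read 6.88 on LPS/zVAD/Nec-1, 7.79 on LPS/zVAD, 7.34 on LPS and 9.45 on Control. Pold1, the catalytic subunit of the lagging-strand polymerase delta, read 7.96 on LPS/zVAD/Nec-1, 8.0 on LPS/zVAD, 7.65 on LPS and 9.48 on Control. The Control array was the highest of the 4 for each of the 8 genes. The large epsilon subunit gene Pole (-1.49 with LPS) and the delta subunit gene Pold2 (-1.56) had smaller log2 ratios than Pole2 and Pold1. Pola1, Pola2 and Prim2, which with Prim1 form the polymerase alpha-primase complex, had ratios between -1.06 and -1.27 with LPS and between -0.72 and -0.87 with LPS/zVAD.

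The clamp, its loader and the Okazaki fragment enzymes split evenly, with 3 of 6 lower with LPS: Rfc4, Lig1 and Rfc5. The loader subunit gene Rfc4 read 10.08 on LPS/zVAD/Nec-1, 10.10 on LPS/zVAD, 10.10 on LPS and 11.79 on Control. Lig1, the ligase that joins Okazaki fragments, read 8.60 on LPS/zVAD/Nec-1, 8.96 on LPS/zVAD, 8.32 on LPS and 9.85 on Control. Rfc5, a further loader subunit, read 10.61 on LPS/zVAD/Nec-1, 10.07 on LPS/zVAD, 10.17 on LPS and 11.27 on Control. In Rfc4 the arrays with LPS were within 0.02 of each other, while in Rfc5 and Lig1 they spread over more than 0.5. Fen1, the flap endonuclease of the same pathway, lay at -1.01 on LPS/zVAD/Nec-1, -1.19 on LPS/zVAD and -0.93 on LPS.

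Pcna and Rfc3 of the same group lay within 0.43 of Control on every array. Pcna, the sliding clamp, read 12.73 on LPS/zVAD/Nec-1, 13.04 on LPS/zVAD, 12.51 on LPS and 12.95 on Control. Its 2 probes gave nearly identical signals on every array, so the 2 cannot be told apart and a signal from a near copy of the gene was not separated. Rfc3 read 9.73 on LPS/zVAD/Nec-1, 9.54 on LPS/zVAD, 9.66 on LPS and 9.73 on Control, and the sign of its LPS ratio (-0.07) turned to 0.03 when arrays were centred on their medians. Among subunits of the same clamp loader, Rfc4 was thus 2-fold lower than Control on all 3 arrays with LPS and Rfc3 on none.

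All 5 genes of nucleotide supply were lower on the LPS/zVAD and LPS arrays than on Control, and 4 of the 5 on LPS/zVAD/Nec-1. Rrm2, the S-phase subunit of ribonucleotide reductase, read 8.12 on LPS/zVAD/Nec-1, 8.95 on LPS/zVAD, 8.36 on LPS and 11.29 on Control, 7.63-fold lower with LPS. Tk1, the cytosolic thymidine kinase, read 8.16 on LPS/zVAD/Nec-1, 8.33 on LPS/zVAD, 7.94 on LPS and 10.08 on Control, and its second probe gave a larger ratio of -2.75 with LPS. Dut, which removes dUTP, read 8.15 on LPS/zVAD/Nec-1, 8.56 on LPS/zVAD, 7.83 on LPS and 9.92 on Control. In each of these 3 genes the highest array with LPS was LPS/zVAD. Rrm1, the large reductase subunit, lay between -1.36 and -1.58 on the arrays with LPS. Tyms, which makes thymidylate, was the member of the group under 2-fold on LPS/zVAD/Nec-1, with ratios of -0.92 there, -1.52 on LPS/zVAD and -1.14 on LPS.

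The G1/S cyclin and E2F genes were lower with LPS in 6 of 6 cases. On each of the other arrays 5 of 6 were lower, the exception being E2f7 at -0.98 with LPS/zVAD/Nec-1 and -0.93 with LPS/zVAD. The 2 cyclin E genes, whose products activate Cdk2 at S phase entry, took different courses. Ccne2 read 7.48 on LPS/zVAD/Nec-1, 8.46 on LPS/zVAD, 7.72 on LPS and 10.05 on Control. Ccne1 read 8.67 on LPS/zVAD/Nec-1, 8.12 on LPS/zVAD, 8.76 on LPS and 9.97 on Control. LPS/zVAD was thus the highest of the 3 arrays with LPS for Ccne2 and the lowest for Ccne1. The activator gene E2f1 read 8.42 on LPS/zVAD/Nec-1, 8.58 on LPS/zVAD, 8.20 on LPS and 10.05 on Control. E2f8, an atypical E2F that represses these targets, read 7.50 on LPS/zVAD/Nec-1, 7.39 on LPS/zVAD, 7.52 on LPS and 9.14 on Control. Activators and repressors among the E2F genes of this group were thus both lower, with E2f2, an activator, at -1.25 and E2f7, a repressor, at -1.23 with LPS. This did not hold for the whole family. Of the E2F genes outside the members, E2f6 lay at -1.18, E2f4 at -0.17, E2f3 at -0.09 and E2f5 at 0.70 with LPS.

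Of 8 genes of chromatin duplication, DNA methylation and histone mRNA, 7 were lower on each of the 3 arrays with LPS. This group held Cdca7l, Tcf19 and Cdca7, 3 of the 4 members with the largest ratios to Control with LPS. Cdca7l read 6.87 on LPS/zVAD/Nec-1, 7.67 on LPS/zVAD, 6.92 on LPS and 9.99 on Control, 8.37-fold lower with LPS. Cdca7, its paralog, which works with the remodeller Hells in keeping DNA methylation, read 7.89 on LPS/zVAD/Nec-1, 7.81 on LPS/zVAD, 7.89 on LPS and 10.75 on Control. Tcf19, a chromatin-binding PHD finger protein gene, read 7.90 on LPS/zVAD/Nec-1, 7.51 on LPS/zVAD, 7.64 on LPS and 10.52 on Control. All 3 lay more than 2 below Control on every array with LPS, and Cdca7l alone of them was higher on LPS/zVAD than on the other arrays with LPS by 0.5 or more.

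The maintenance methylation pair was also lower. Uhrf1, which binds hemimethylated DNA, lay at -2.33 on LPS/zVAD/Nec-1, -1.90 on LPS/zVAD and -2.29 on LPS. Dnmt1, the methyltransferase that Uhrf1 guides, lay at -1.37 on LPS/zVAD/Nec-1, -1.42 on LPS/zVAD and -1.49 on LPS. The subunit genes of the histone chaperone CAF-1 differed: Chaf1a, the large subunit, lay between -1.05 and -1.19 on all 3 arrays, whereas Chaf1b read 7.73 on LPS/zVAD/Nec-1, 8.76 on LPS/zVAD, 7.57 on LPS and 10.02 on Control. Slbp, which binds the stem loop of histone mRNA, was the gene of the group under 2-fold, at -0.59 on LPS/zVAD/Nec-1, -0.55 on LPS/zVAD and -0.44 on LPS.

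Of the repair pair, Mcm8, a helicase of homologous recombination, read 6.85 on LPS/zVAD/Nec-1, 6.96 on LPS/zVAD, 7.00 on LPS and 8.19 on Control. Ung, which cuts uracil out of DNA, read 7.15 on LPS/zVAD/Nec-1, 6.94 on LPS/zVAD, 6.96 on LPS and 7.83 on Control. Mcm8 was lower by 2-fold on all 3 arrays and Ung on none, although its ratios of -0.68 to -0.89 point the same way.

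The LPS/zVAD array was then compared with LPS to describe what differed when caspases were inhibited, and the array with Nec-1 was set against LPS/zVAD for what differed when RIPK1 was inhibited as well. On LPS/zVAD 3 members were higher than on LPS and 0 were lower, a share of 6% against 3.25% of all genes higher and 3.59% lower. They were Mcm4 (2.45-fold), Chaf1b (2.29-fold) and Cdt1 (2.14-fold). Just outside the threshold was Mcm6, at a log2 ratio of 0.94. The median of the 50 was 0.26, against -0.05 over all genes, with 34 members above LPS and 16 below by any amount. Among the 12203 genes past the filter, 5472 were above LPS and 6725 below. The members' count above LPS was 32 with arrays centred, 37 after quantile normalization and 39 under cyclic loess. A share of 6% is near the share of all genes and is given as a description of these 3 genes. Of all genes past 2-fold between those arrays, 47.5% were higher on LPS/zVAD as deposited, 57.8% after quantile normalization and 59.7% under cyclic loess.

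The next comparison shares the LPS/zVAD array with the one before, so the values of the 2 are not independent. On LPS/zVAD/Nec-1 3 members were lower than on LPS/zVAD and 0 were higher, against 3.32% lower and 1.14% higher of all genes. Mcm4 was 2.42-fold lower with Nec-1 added, Chaf1b 2.04-fold, and Mcm6 sat at the threshold with a log2 ratio of -1.0. Ccne2 lay just outside at -0.98 and Cdt1 at -0.61. The median of the 50 was -0.11, against 0.07 over all genes.

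LPS/zVAD/Nec-1 and LPS were close for these genes. None of the 50 was 2-fold apart between those arrays, where 0.541% of all genes were lower and 0.0738% higher on LPS/zVAD/Nec-1, so a count of 0 is near the background. All 50 ratios were within 0.5, as were 94.4% of all genes, with Cdt1 the highest at 0.48 and Prim1 the lowest at -0.46. The median was 0.07, against -0.02 over all genes.

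By a cutoff of 0.5, 7 of the genes were higher on LPS/zVAD than on both LPS/zVAD/Nec-1 and LPS: Cdt1, Mcm4, Mcm6, Rrm2, Ccne2, Chaf1b and Cdca7l. That is 7 of 50, against 7.49% of all genes. Under the other scalings the count was 8 to 11, against 7.46% to 9.02% of all genes. Ccne1 was lower on LPS/zVAD than on both by 0.5 or more, as were 9.3% of all genes. It did not reach the cutoff under cyclic loess. Pole2 joined Ccne1 with arrays centred and after quantile normalization.

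**Figure D2:**
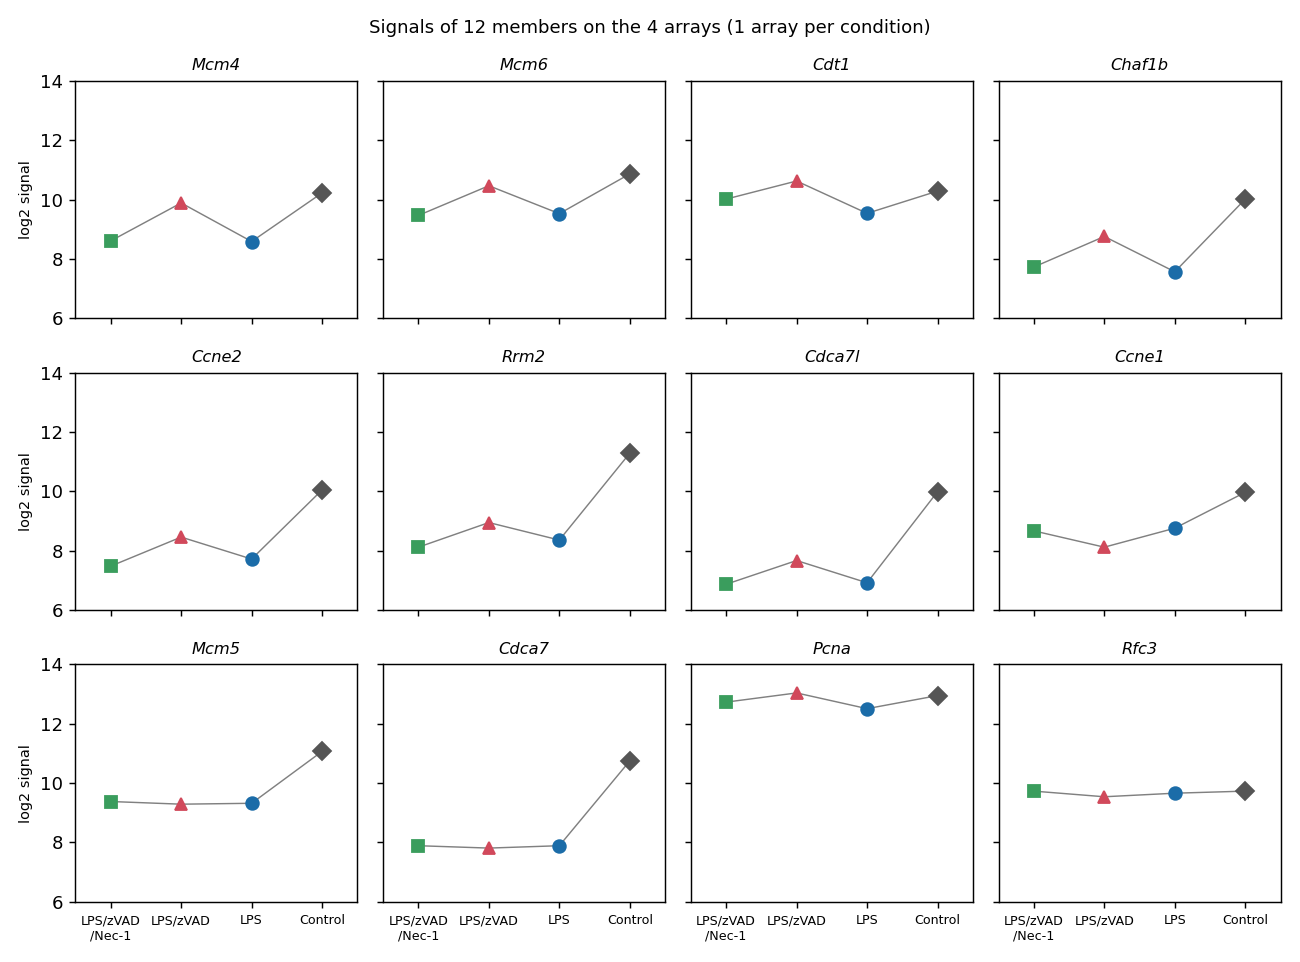
Log2 signal (vertical axis) of 12 of the genes on the LPS/zVAD/Nec-1, LPS/zVAD, LPS and Control arrays (horizontal axis, 1 array each; lines join points of a gene and show no time order). Mcm4, Mcm6, Cdt1, Chaf1b, Ccne2, Rrm2 and Cdca7l are higher on LPS/zVAD than on both neighbours, Ccne1 is lower, and Mcm5, Cdca7 and Rfc3 are nearly level over the arrays with LPS.

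Some stromal and progenitor markers differed between these arrays, and their part in the replication gene values was not tested. Of 8 stromal and endothelial markers, 2 were lower on LPS/zVAD than on LPS (Dcn at -1.86 and Pecam1 at -1.14), against 3.59% of all genes. On LPS against Control 3 were higher (Dcn at 2.82, Pecam1 at 1.77 and Cdh5 at 1.02), against 8.24% of all genes. The Control signals of Dcn (5.7), Pecam1 (6.35) and Cdh5 (6.42) were under the filter level, so their ratios to Control are not well measured. The list did not go one way, since the collagen genes had the opposite sign to Dcn and Pecam1. On LPS/zVAD against LPS Col1a1 lay at 0.31, Col1a2 at 0.32 and Col3a1 at 0.29. On LPS against Control Col1a1 lay at -0.40, Col1a2 at -0.35 and Col3a1 at -0.30. Pdgfrb lay at -0.16 and Acta2 at 0.19 on LPS against Control, and the median of the 8 was 0.01 there and -0.27 on LPS/zVAD against LPS. The summed signal of the 8 was log2 10.41 on LPS/zVAD/Nec-1, 10.08 on LPS/zVAD, 10.58 on LPS and 10.01 on Control. The summed signal of 10 granulocyte progenitor and neutrophil markers was 12.22 on LPS/zVAD/Nec-1, 12.12 on LPS/zVAD, 12.47 on LPS and 11.95 on Control. Ly6g (1.03) and S100a9 (1.12) were higher on LPS than on Control. The median of the 10 was 0.45 there, with Elane at 0.09, Camp at 0.06 and Mpo at -0.13. On LPS/zVAD against LPS the median was -0.35, and 9 of the 10 were below LPS, all by under 2-fold. The largest of these ratios were Mpo (-0.80), Prtn3 (-0.67), Ctsg (-0.66) and Elane (-0.51), and Ltf lay at 0.02. Cd34, a stem and progenitor marker, had a log2 ratio of -1.34 on LPS/zVAD/Nec-1, -1.72 on LPS/zVAD and -1.86 on LPS against Control. The names in these sentences were chosen after their values were seen.

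Other genes of the same pathways were read from lists of 110 further genes, of which 105 were measured and 104 passed the filter. With LPS 46 of the 104 were lower than Control (44.2%, against 7.2% of all genes), with a median of -0.95 over the 105 measured. The 4 that were higher made up 3.85%, under the 8.24% of all genes. The counts were 48 lower (46.2%, all genes 7.68%) and 4 higher (3.85%, all genes 6.85%) with LPS/zVAD/Nec-1. With LPS/zVAD they were 52 lower (50%, all genes 10.7%) and 4 higher (3.85%, all genes 8.79%). Fbxo5, an inhibitor of the APC/C ubiquitin ligase, had the largest ratio with LPS at -3.02, followed by the dCMP deaminase gene Dctd at -2.81, the nuclease-helicase gene Dna2 at -2.39, the replisome factor gene Wdhd1 at -2.16 and the checkpoint kinase gene Chek1 at -2.14. On the LPS/zVAD array the 6 largest also took in the CDK inhibitor gene Cdkn2c (-2.77), the mismatch repair gene Msh6 (-2.48, with a signal under the filter level) and the purine synthesis gene Gart (-2.16). With LPS/zVAD/Nec-1 they took in Mthfd1, an enzyme of folate metabolism, at -2.18.

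Of those 104 genes the 4 that were higher with LPS than in Control were Samhd1 (2.14), which degrades dNTPs, the D cyclin gene Ccnd2 (1.69), the deoxycytidine kinase gene Dck (1.39) and the CDK inhibitor gene Cdkn2d (1.05). Samhd1 and the reductase genes Rrm1 and Rrm2, which act on the same nucleotide pool in opposite ways, thus moved in opposite directions between these arrays. A further reductase gene, Rrm2b, had the same sign as Samhd1 but stayed under 2-fold. It lay at 0.50 on LPS/zVAD/Nec-1, 0.41 on LPS/zVAD and 0.36 on LPS. The 4 genes higher than Control were not the same on LPS/zVAD as on LPS. On LPS/zVAD they were Samhd1 (1.74), Mcm9 (1.72), Asf1a (1.69) and E2f5 (1.22). Ccnd2 (0.74), Dck (0.9) and Cdkn2d (0.53) were under 2-fold on that array. Among the genes upstream of E2F, Ccnd1 read 11.72 on LPS/zVAD/Nec-1, 11.54 on LPS/zVAD, 11.29 on LPS and 13.30 on Control. Cdk2, the partner of cyclin E, lay at -1.73 on LPS/zVAD/Nec-1, -1.92 on LPS/zVAD and -1.61 on LPS, and Myc at -0.98 on LPS/zVAD/Nec-1, -1.56 on LPS/zVAD and -1.43 on LPS. Top2a, which untangles copied DNA, lay at -1.04 on LPS/zVAD/Nec-1, -1.23 on LPS/zVAD and -1.26 on LPS. Csf1r, the receptor for macrophage colony stimulating factor, lay at -0.79 on LPS/zVAD/Nec-1, -0.81 on LPS/zVAD and -0.66 on LPS, so it was under 2-fold on each. No single-symbol probe of Cdkn1a was found, and it was not analysed here.

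On LPS/zVAD against LPS, 3 of the 104 were higher and 3 lower, which is 2.88% each way and no more than the 3.25% higher and 3.59% lower of all genes. These counts are at the background and the genes are named as a description. Mcm9, the partner of Mcm8, was higher by 1.56, Wdhd1 by 1.49 and the helicase gene Blm by 1.06, and lower were the D cyclin gene Ccnd3 (-1.37), the retinoblastoma relative Rbl2 (-1.19) and the mitochondrial thymidine kinase gene Tk2 (-1.11). With Nec-1 added, 2.88% were lower and 1.92% higher than on LPS/zVAD, against 3.32% lower and 1.14% higher of all genes. Mcm9 (-1.85), Wdhd1 (-1.53) and Blm (-1.37) were lower and Fbxo5 (1.23) and Ccnd3 (1.20) higher. The LPS/zVAD signal of Fbxo5 (6.45) was under the filter level, so its ratio is not well measured. Wdhd1 read 7.44 on LPS/zVAD/Nec-1, 8.97 on LPS/zVAD, 7.48 on LPS and 9.64 on Control. As for Mcm4, its LPS/zVAD signal lay below Control and more than 1 above the other arrays with LPS. Between LPS/zVAD/Nec-1 and LPS, 0 of the 104 differed by 2-fold, where 0.541% of all genes were lower and 0.0738% higher.

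**Figure D3:**
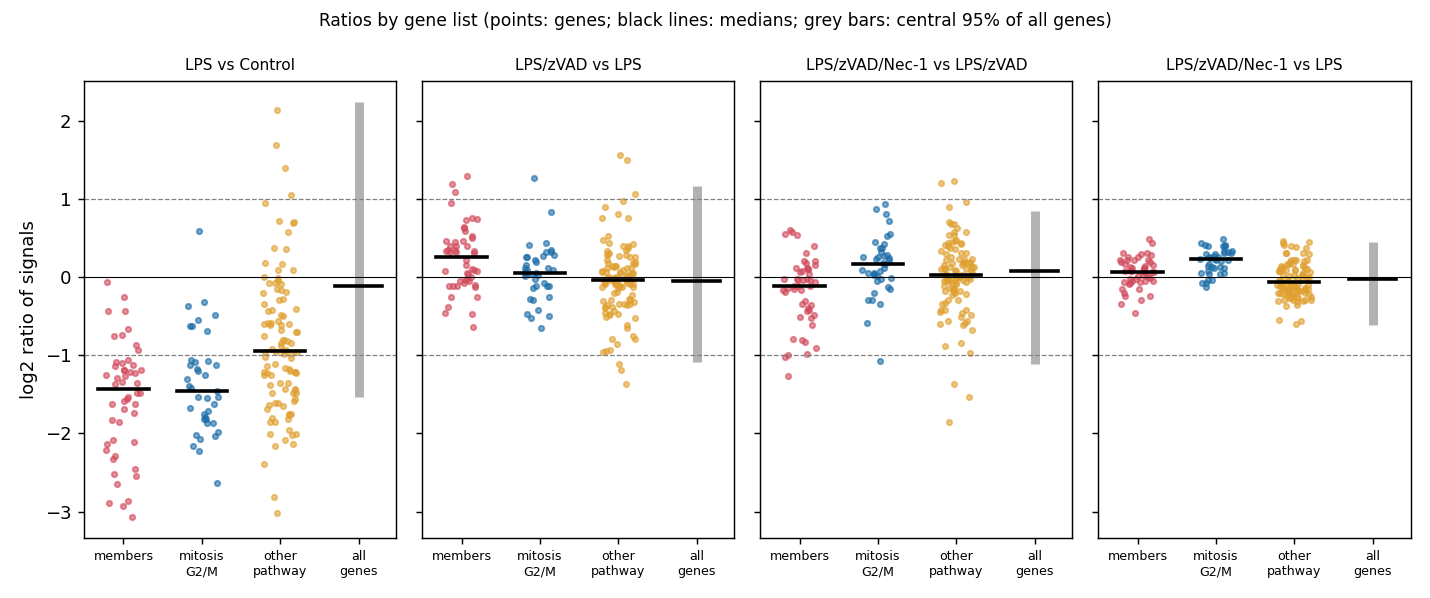
Log2 ratios (vertical axis) of single genes (points) in 3 lists and all genes past the filter, with medians as black lines and, for all genes, the central 95% as a grey bar; dashed lines mark 2-fold. "Members" are the 50 replication and G1/S genes. Between LPS and Control the medians of the members (-1.43) and of the mitosis list (-1.46) lie far below that of all genes (-0.12), and in the 3 plotted comparisons between arrays with LPS all medians lie within 0.26 of 0.

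Genes of mitosis and G2/M, which act after replication, were set beside the replication genes. Of 39 measured, 31 were lower with LPS than in Control and 0 higher, at a median of -1.46, close to the -1.43 of the replication genes. The counts were 28 lower with LPS/zVAD/Nec-1 (median -1.26) and 27 with LPS/zVAD (median -1.28), and 0 higher on either. Mki67, the proliferation marker, lay at -1.26 on LPS/zVAD/Nec-1, -0.92 on LPS/zVAD and -1.18 on LPS, and Cdk1, the mitotic kinase, at -1.13 on LPS/zVAD/Nec-1, -1.37 on LPS/zVAD and -1.26 on LPS. On LPS/zVAD against LPS the median of the mitosis genes was 0.05, and Cdc20, an activator of the APC/C, was the gene past 2-fold (1.27). That is 2.56% of the list, against 3.25% of all genes. On LPS/zVAD/Nec-1 against LPS/zVAD the mitosis median was 0.17, with 28 of 39 above 0. The replication median was -0.11 there, with 33 of 50 below 0. On LPS/zVAD/Nec-1 against LPS the mitosis median was 0.23 and the replication median 0.07.

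Words for cell cycle factors were counted in the promoter windows shown for Mcm6 and the other printed genes. The RefSeq windows covered 43 of the 50 genes, all but Gmnn, Mcm4, Gins1, Gins2, Prim2, Pole and Ccne2. A window with an E2F word (the 4 words above, both strands, overlaps allowed) was found for 18 of the 43 (41.9%), against 5.88% of 34 mitosis genes, 4.61% of 9782 array genes past the filter and 2.6% of 27025 genes with a window. The NF-Y box CCAAT was found for 60.5% of the replication genes, 76.5% of the mitosis genes, 41.9% of the filtered array genes and 41.1% of all genes. The CHR word TTTGAA, known from promoters of mitotic genes, was found for 16.3% of the replication genes, 70.6% of the mitosis genes, 14.1% of the filtered array genes and 20.2% of all genes. Windows of the replication genes had a median GC content of 62.2%, against 59.7% for the mitosis genes, 60.7% for the filtered genes and 52.7% for all genes. The replication list was thus richest in E2F words of the 4 sets, and the mitosis list in CHR words.

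**Figure D4:**
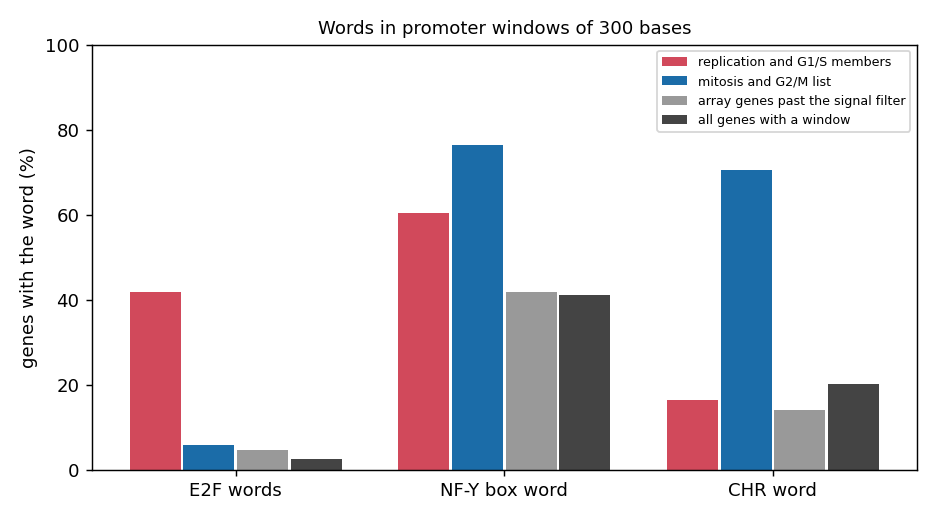
Share of genes (vertical axis, %) with at least 1 match of the E2F words, the NF-Y box word or the CHR word in a window of 300 bases around the start, for the 43 replication and G1/S genes with a window, the 34 mitosis and G2/M genes, the 9782 filtered array genes and all 27025 genes. E2F words stand at 41.9% in the replication genes, and CHR words at 70.6% in the mitosis genes.

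Members with and without an E2F word covered similar ranges of ratios. The search took only exact matches of the 4 words, and members without one, such as Pola2 and Chaf1a, hold near matches. The split therefore does not show which members E2F proteins can bind. With LPS against Control the 18 members with an E2F word had a median of -1.42 (range -2.86 to -0.07), and the 25 without one had a median of -1.56 (range -3.07 to -0.25). On LPS/zVAD against LPS the median was 0.31 for members with a word and 0.22 for members without. Rfc3 with 2 words was close to Control on every array, and Mcm5 with 2 overlapping words was 2-fold lower on all 3 arrays with LPS. Cdca7l, Rrm2 and Tcf19, with the 3 largest ratios, had none of the 4 words in their windows.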

How the data were processed

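Total RNA of BMDMs was hybridised to 4 Affymetrix arrays, 1 per condition, and samples were grouped by their titles. The authors summarised each array into gene-level log2 signals in Affymetrix Expression Console before they were deposited, as the submitters' processing notes record; the log2 scale itself was read from the values. Software version, background correction and normalization are not stated in the labels. The platform annotation named 21789 probes with 1 symbol (1621 had several, 12146 none), which gave 19938 genes. A gene with more than 1 probe (999 genes) was represented by the probe with the highest mean. Genes whose highest signal reached the median of all values (log2 6.47) were counted, 12203 in all. Comparisons were differences of log2 signals between single arrays, with no test. Alternatives were other fold thresholds, scalings (limma 3.58.1 in R 4.3.3 for cyclic loess), filters and probe rules. RefSeq promoter windows were searched with Python 3.11.15. The members and lists were chosen with earlier results of these data known. All 50 members were accounted for, and in each role group the 3 with the largest LPS to Control ratio were given with their signals, as was any member 2-fold apart between arrays with LPS or higher than Control on any of them. Of the other pathway genes the 6 largest ratios per comparison past 2-fold and 8 key genes were named; of the mitosis list, counts, medians and key genes. Values of Mcm5, Ccne1, Orc1, Orc6, Cdc6, Gmnn and others outside that rule were added for completeness after they were seen.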

Additional observations from a re-analysis of the deposited data

How the results depend on the processing

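No paired analysis was possible because each condition had 1 array. At a 3-fold threshold 20 members were lower with LPS than in Control, 19 with LPS/zVAD/Nec-1 and 16 with LPS/zVAD, and 0 were higher on LPS/zVAD than on LPS or lower on LPS/zVAD/Nec-1 than on LPS/zVAD. At 1.5-fold, 10 were higher and 1 lower on LPS/zVAD than on LPS, and 9 were lower and 1 higher on LPS/zVAD/Nec-1 than on LPS/zVAD. Shares of all genes were computed at 2-fold and not at these thresholds. The 3-fold and 1.5-fold counts therefore have no background beside them and show no shift of the list as a set. The members' median for LPS/zVAD against Control was -1.14 under cyclic loess, and that for LPS/zVAD/Nec-1 against LPS was -0.01 with arrays centred and 0.14 after quantile normalization; the cause was not tested. Scaling, probe rule and floor on low signals reversed 0 of the members past 2-fold. They brought Cdc6, Cdc45, Prim2 or Rfc5 under 2-fold in 7 of 205 recomputed values for LPS against Control, Pola2, Prim2, Fen1 or Chaf1a in 8 of 190 for LPS/zVAD/Nec-1, Fen1 or Chaf1a in 2 of 170 for LPS/zVAD, and Mcm6 (-0.98) in 1 of 15 for LPS/zVAD/Nec-1 against LPS/zVAD.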
